A study of Mus musculus with 8 samples.

Results

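Cd177 (ENSMUSG00000052212) is 1 of the 33696 genes in the deposited count table of a single-cell RNA-seq study of mouse cecum and colon. It was chosen by its levels across groups and cell classes in these same data, so these are given as a description, with no p-value. The table held 24609 barcodes, of which 15916 reached 500 transcripts and were kept as cells. They carried 13634 Cd177 transcripts, found in 4363 cells.

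CD177 is a glycoprotein of the Ly6/uPAR family, small cysteine-rich surface proteins that are mostly tethered to the membrane by a glycosylphosphatidylinositol (GPI) anchor. It is best known from neutrophils, where it holds proteinase 3 (Prtn3) at the surface together with the integrin Mac-1 (Itgam and Itgb2) and can bind PECAM1 on endothelium. In the large bowel, stem cells at the crypt base give rise to dividing cells, which move up and mature into absorptive colonocytes, mucus-secreting goblet cells, hormone-secreting enteroendocrine cells and tuft cells.

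The groups were Ctrl (control mice), Abx_4D and Abx_14D (mice given antibiotics) and GF (germ-free mice), each for cecum and colon. The labels do not say which antibiotics were used, what 4D and 14D stand for, or the strain or age of the mice. Cells were pooled by condition and sorted as EPCAM-positive and CD45-negative, with CD44-positive and CD44-negative cells loaded at 1:1, so the balance of crypt and mature cells was set by the sort. Each group appears in the deposited cell table as 4 numbered loaded samples, which no label calls separate animals, so the spread between them may be technical.

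The 16 cecal samples kept 191 to 971 cells each, and the colon Abx_14D and GF samples 542 to 1886. Colon Ctrl kept 50 cells in all, and colon Abx_4D 1026, with 857 of them in sample 1. Kept cells had a median of 13472 transcripts. The epithelial sort was checked on 5 epithelial markers (Epcam, Cdh1, Krt8, Krt18 and Krt19), which summed to 2318 to 3751 counts per 1000000 transcripts (CPM) in crypt cells of each sample. Of 14 neutrophil markers, 9 had at most 10 transcripts in all kept cells, with S100a8 and S100a9 at 0. The highest were Itgam (775), Csf3r (156) and Prtn3 (131). The whole list summed to 0 to 8.03 CPM in crypt cells. Immune markers summed to 0 to 8.81 CPM and stromal markers to 0.801 to 9.33 CPM. Of 15441 well combinations of barcodes, 462 occurred in more than 1 of the 8 sublibraries.

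Cells were assigned to classes by the summed CPM of marker genes, without Cd177, and the class called crypt joins the stem, S phase and G2/M gates. The gates cut continuous scores, so the classes are ranges and not discrete types. When all cut-offs were lowered by a factor of 0.67, 230 of the 8887 crypt cells left the class. At a factor of 1.5, 1633 left it.

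Cd177 has a neighbour, Ceacam10 (ENSMUSG00000054169), whose level went with it in several groups and which is described further on. Ceacam10 encodes a secreted member of the carcinoembryonic antigen-related family. The 250 bases before the start of each gene are shown because the pair lies head to head on chromosome 7, with starts 16856 bases apart in GRCm38.p6. For Ceacam10, 2 starts are listed, and the window and distance are for a single start. Both sequences are from RefSeq on GRCm38.p6, while the count table is on GRCm39. They are written 5′ to 3′ on the strand of the gene. Capitals mark a match to TATAAA.
Cd177, chr7:24760312-24760561, minus strand: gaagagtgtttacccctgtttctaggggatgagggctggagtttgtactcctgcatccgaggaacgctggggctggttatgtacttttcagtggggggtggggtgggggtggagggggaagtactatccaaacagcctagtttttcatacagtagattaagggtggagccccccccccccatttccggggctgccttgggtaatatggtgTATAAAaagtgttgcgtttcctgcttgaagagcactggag
Ceacam10, chr7:24776917-24777166, plus strand: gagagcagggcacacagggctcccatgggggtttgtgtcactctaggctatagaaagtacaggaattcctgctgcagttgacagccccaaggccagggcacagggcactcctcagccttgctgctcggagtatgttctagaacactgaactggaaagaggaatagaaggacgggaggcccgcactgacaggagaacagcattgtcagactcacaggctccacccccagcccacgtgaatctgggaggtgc

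The Cd177 window held 1 match to TATAAA, which began 40 bases before the start, and 12.4% of 32851 RefSeq promoter windows of this length held at least 1. The Ceacam10 window shown had no such match. On either strand, neither window held the letters ATCAAAG (3.21% of windows), TTCNNNGAA (7.02%), AGATAA (9.99%) or TTTATG (10.8%), the core motifs of TCF, STAT, GATA and CDX factors.

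Most Cd177 transcripts were in crypt and goblet cells. Stem-gated cells held 49.6% of all Cd177 transcripts and were 36.8% of kept cells. Goblet cells held 20.7% and were 8.21% of cells. The G2/M gate held 11.4% and was 11.5% of cells. The S phase gate held 7.61% and was 7.58% of cells, so both were near their share. Absorptive cells were 15.2% of cells but held 0.895% of the transcripts. Enteroendocrine cells held 2.25% although they were only 0.446% of cells. Tuft cells held 0.411% and were 1.80% of cells. These shares pool both tissues and all groups, which differ in their mix of classes. In the 62 cells of the immune gate, 1 Cd177 transcript was counted, at a median depth of 7499.5 transcripts against 13361 in the stem gate.

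Among cecal crypt cells, Cd177 was high in Ctrl and low in every other group. The 4 Ctrl samples had 146.7, 263, 136 and 87.4 CPM. The Abx_4D samples had 37.5, 47.5, 19.4 and 9.80 CPM. The Abx_14D samples had 3.17, 6.22, 3.46 and 1.82 CPM, and the GF samples 10.7, 5.71, 8.63 and 13.5 CPM. Every Ctrl sample lay above every sample of the other groups. The Abx_14D and GF samples overlapped, because GF sample 2 lay below Abx_14D sample 2. GF and Abx_4D also overlapped.

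**Figure D1:**
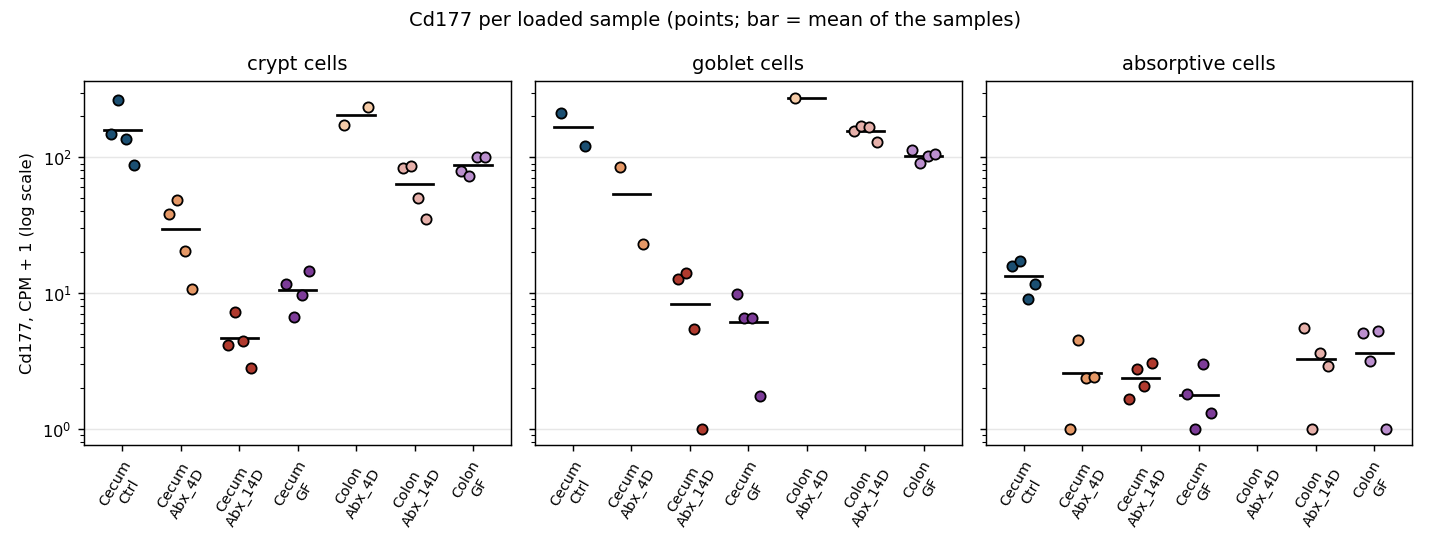
Cd177 per loaded sample in crypt, goblet and absorptive cells, as CPM + 1 on a log axis; each point is 1 sample with at least 20 cells of the class and the bar is the mean of the samples. In crypt cells the cecal Ctrl samples sit between 87.4 and 263 CPM and the cecal Abx_14D samples between 1.82 and 6.22, while the colon Abx_14D and GF samples sit between 34.4 and 99.4.

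The mean over cecal crypt samples was 158 ± 74.5 CPM for Ctrl (SD, n = 4) and 28.5 ± 17.1 for Abx_4D. For Abx_14D it was 3.67 ± 1.85 and for GF 9.62 ± 3.28. In the edgeR fit, the Cd177 log2 difference from Ctrl was -2.60 ± 0.38 (SE) for Abx_4D, -5.38 ± 0.44 for Abx_14D and -4.08 ± 0.40 for GF. The median of all genes tested lay within 0.04 of no difference in each. Cd177 had the 2nd lowest log2 difference of 11804 genes in Abx_14D against Ctrl, the contrast that helped to choose it. Abx_14D was lower than Abx_4D by a log2 difference of -2.78 ± 0.46. GF was above Abx_14D by 1.30 ± 0.49, with overlapping samples. All of the comparisons against Ctrl share the same control samples.

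The share of cecal crypt cells with at least 1 Cd177 transcript had the same order as the levels. Ctrl had 64.3% ± 9.41 and Abx_4D 22.0% ± 11.4, while Abx_14D had 5.62% ± 2.79 and GF 10.7% ± 3.71. Per sample, the median depth of these cells ran from 6050.5 to 23132 transcripts. With each cell thinned to 5000 transcripts and shallower cells left out, the shares were 44.7% ± 11.96, 11.4% ± 6.83, 1.36% ± 0.720 and 3.68% ± 2.76. The order of the groups was the same at equal depth.

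Within cecal Ctrl crypt cells, the stem gate had the highest mean, 213 ± 72.5 CPM. The S phase gate had 145.0 ± 97.5 CPM and the G2/M gate 102 ± 78.5 (n = 3), and the ranges of the 3 gates overlapped. The gates share samples, however, and within each of samples 2 to 4 the order was stem, S phase, G2/M. By sample, stem had 194.9, 315.9, 196.8 and 145.4 CPM, and S phase 108.6, 290.3, 99.4 and 81.6. G2/M had 193.0, 59.8 and 54.3 CPM in samples 2 to 4. In sample 1 it had only 18 cells, at 119 CPM, above S phase and below stem. In cecal Abx_14D the same gates had 4.26 ± 1.19, 5.34 ± 4.04 and 2.81 ± 2.04 CPM. In cecal GF they had 8.43 ± 3.93, 3.92 ± 3.44 (n = 3) and 13.8 ± 6.99 CPM. Each gate was thus lower in Abx_14D and GF than in Ctrl, with no overlap between samples.

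Colon crypt cells had more Cd177 than cecal crypt cells in Abx_14D and GF. The colon Abx_14D samples had 82.7, 84.7, 49.3 and 34.4 CPM, a mean of 62.8 ± 24.9. The colon GF samples had 77.7, 71.9, 99.2 and 99.4 CPM, a mean of 87.0 ± 14.3. All 8 colon samples lay above all 8 cecal samples of the same groups. The colon minus cecum log2 difference was 4.07 ± 0.32 in Abx_14D and 3.22 ± 0.29 in GF. Between the colon groups, GF minus Abx_14D was 0.44 ± 0.22, and the samples overlapped. After thinning, 21.2% ± 6.30 of colon crypt cells were positive in Abx_14D and 27.0% ± 3.69 in GF.

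No control level could be set for the colon. The 12 crypt cells of colon Ctrl held 7899 transcripts and no Cd177 transcript, which allows a level of up to 379.8 CPM. In colon Abx_4D, the 2 samples with at least 20 crypt cells had 173 and 233 CPM, both above every colon Abx_14D and GF sample. Their cells were shallow (median depths of 6871 and 4225 transcripts), and sample 1 was among those with over 0.5% mitochondrial transcripts. Barcodes below 500 transcripts in colon Abx_4D held 16 Cd177 transcripts, 36.8 CPM, and the part of free RNA in the colon values was not tested.

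Ordered by group mean, the crypt levels ran from colon Abx_4D (203 ± 42.8 CPM, n = 2) through cecal Ctrl, colon GF, colon Abx_14D, cecal Abx_4D and cecal GF down to cecal Abx_14D. The samples of each pair of neighbours in this order overlapped. Groups further apart, such as cecal Ctrl and cecal Abx_4D, did not.

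Goblet cells, the mucus-secreting class, showed the same separation in the cecum with fewer cells. Only 2 Ctrl samples had at least 20 goblet cells, with 209.6 and 120.3 CPM. The 2 Abx_4D samples had 84.2 and 22.1 CPM. The Abx_14D samples had 11.8, 13.2, 4.42 and 0 CPM, and the GF samples 8.80, 5.51, 5.56 and 0.732 CPM. The Ctrl samples lay above all others. Against Ctrl, the Cd177 log2 difference was -1.56 ± 0.61 for Abx_4D, -4.44 ± 0.60 for Abx_14D and -5.07 ± 0.60 for GF. GF minus Abx_14D was -0.63 ± 0.73. With at least 40 cells per sample it was 0.32, from only Abx_14D sample 3 and GF samples 2 and 3. No direction can thus be read between these groups. The Abx_4D value rests on few samples, since it became -2.90 without Abx_4D sample 3.

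In colon goblet cells, the Abx_14D samples had 154, 170.5, 168 and 129.7 CPM and the GF samples 112, 90.1, 101 and 105 CPM. The groups did not overlap. GF minus Abx_14D was -0.61 ± 0.13, a direction opposite to that in colon crypt cells; the difference between the classes was not tested. The colon minus cecum log2 difference in goblet cells was 4.35 ± 0.39 in Abx_14D and 4.38 ± 0.39 in GF, and the ranges were far apart. In colon Abx_4D, the single sample with at least 20 goblet cells had 274 CPM.

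Cd177 was low in absorptive cells, the mature surface class. In the cecum, the Ctrl samples had 14.7, 16.4, 8.10 and 10.6 CPM, all above the samples of Abx_4D (0 to 3.55), Abx_14D (0.673 to 2.07) and GF (0 to 1.99). The mean was 12.5 ± 3.78 CPM for Ctrl and 0.778 ± 0.875 for GF. In cecal Abx_14D, crypt cells were above absorptive cells in samples 1 to 3 (3.17 against 0.673 CPM, 6.22 against 1.76 and 3.46 against 1.06). In sample 4 they were below, at 1.82 against 2.07 CPM. In cecal GF, the crypt level was above the absorptive level in all 4 samples.

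In cecal Ctrl, cecal Abx_14D, colon GF and colon Abx_14D, the mean Cd177 level was lower in each higher band of the absorptive marker score. This also held below the absorptive cut-off. The score is the summed CPM of 12 colonocyte markers. In cecal Ctrl, cells scoring under 250 had 187 ± 82.3 CPM of Cd177, those from 250 to 1000 had 145 ± 58.4, those from 1000 to 4000 had 94.8 ± 44.3, and those at 4000 or more had 12.5 ± 3.78. In colon GF the same bands had 88.2 ± 14.4, 51.2 ± 4.50, 16.1 ± 5.74 and 2.61 ± 1.98 CPM. In colon Abx_14D they had 67.3 ± 28.9, 34.5 ± 18.0, 7.40 ± 6.30 and 2.27 ± 1.88 CPM. In cecal Ctrl, the samples of the 3 lower bands overlapped and only the highest band was apart, whereas all 4 bands of colon GF were apart. Cecal Abx_14D had 3.63, 3.48, 2.79 and 1.39 CPM, and the samples of all 4 bands overlapped. The other groups had no such order in the lower bands. Cecal GF had 3.75 (n = 3), 10.5 and 4.98 CPM in the 3 lower bands, and cecal Abx_4D 28.0, 31.3 and 12.9. Colon Abx_4D had 199.6 and 211 CPM in the lower pair (n = 2) and 181 in the next (n = 1). Where absorptive cells could be measured in these groups, the highest band had the lowest mean.

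**Figure D2:**
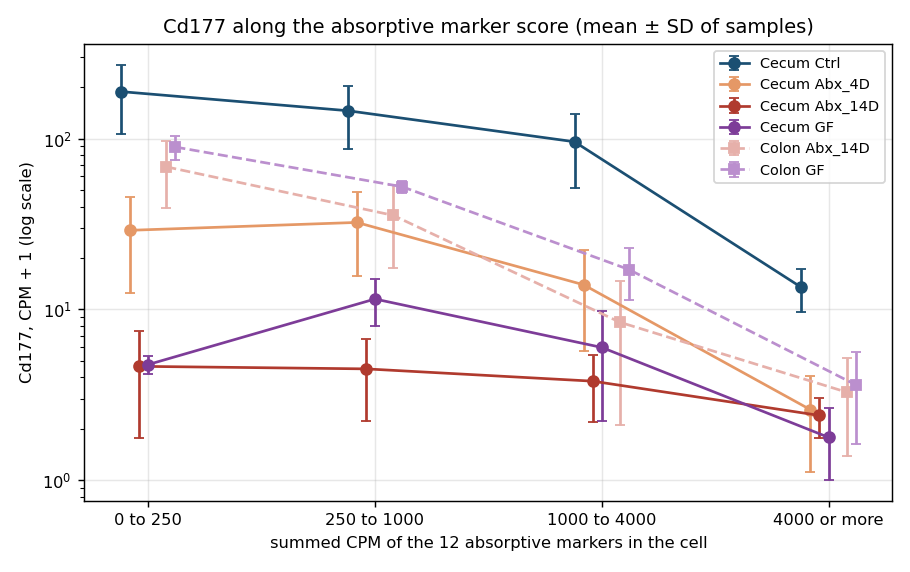
Cd177 (CPM + 1, log axis) in 4 bands of summed absorptive marker CPM per cell, as the mean and SD of loaded samples with at least 20 cells of the band; circles are cecum and squares colon. Cecal Ctrl goes from 187 CPM in the lowest band to 12.5 in the highest, and colon GF from 88.2 to 2.61.

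Enteroendocrine cells were few, 71 in all, and no sample reached 20, so their counts were pooled by group and no test was made. In the colon, Abx_14D had 107 Cd177 transcripts in 18 cells, 276 CPM (exact 95% Poisson interval 227 to 334, for counting error only), and GF had 114 in 27 cells, 241 CPM (199 to 289). The Abx_14D value rested on sample 1, which gave 91 of the 107 transcripts, and was 111.1 CPM without it. A single cell held 43 of the 107 transcripts in Abx_14D, and another 32 of the 114 in GF. In cecal Abx_14D, 27 transcripts were counted in 10 cells from 4 samples, 129.9 CPM (85.6 to 189), where pooled crypt cells had 3.81 CPM (2.95 to 4.84). Of these 10 cells, 6 were positive, 60% (exact binomial interval 26.2 to 87.8), and the highest cell held 11 of the 27 transcripts. Cecal Ctrl had 8 transcripts in 6 cells, 94.2 CPM (40.7 to 186), and cecal GF 2 in 5 cells, 14.8 CPM (1.80 to 53.6). In cecal Abx_4D, 43 of 46 transcripts came from 1 cell. Tuft cells were lower: pooled colon GF had 27.6 CPM (19.6 to 37.7) and colon Abx_14D 9.59 CPM (4.39 to 18.2).

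**Figure D3:**
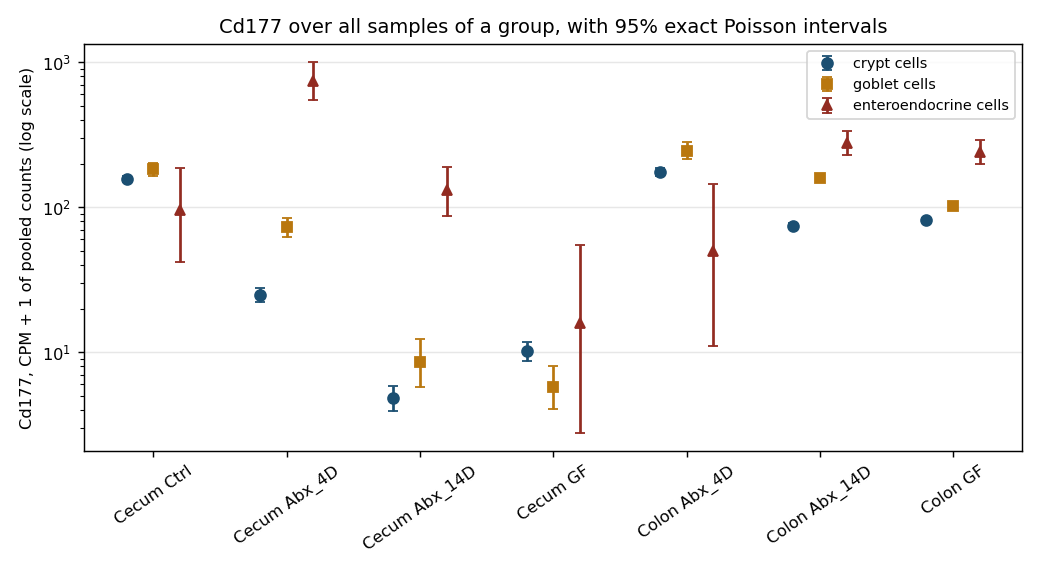
Cd177 (CPM + 1, log axis) in crypt, goblet and enteroendocrine cells, pooled over all samples of a group, with exact 95% Poisson intervals that cover counting error only. In cecal Abx_14D, enteroendocrine cells are at 129.9 CPM and crypt cells at 3.81; the high enteroendocrine point of cecal Abx_4D comes almost wholly from 1 cell.

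The genes beside Cd177 on its chromosome were measured next. Of the 3 protein-coding genes on each side in RefSeq, 5 of 6 were in the table. The Ly6/uPAR genes Lypd10, Lypd11 and Lypd4 had 2, 1 and 0 transcripts in all kept cells, and Dmrtc2 had 2. Ceacam10 had 4401.

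In cecal crypt cells, Ceacam10 was lower in the other groups than in Ctrl. The cecal Ctrl samples had 25.8, 29.8, 35.5 and 22.0 CPM, the Abx_4D samples 10.2, 14.6, 6.70 and 8.78, the Abx_14D samples 1.81, 0.215, 0.577 and 0.909, and the GF samples 2.14, 0.317, 0.893 and 0. Ctrl did not overlap with any other group. Against Ctrl, Ceacam10 fell in all 3 groups, with log2 differences of -1.60 ± 0.34 for Abx_4D, -4.98 ± 0.43 for Abx_14D and -4.83 ± 0.44 for GF (edgeR, Benjamini-Hochberg adjusted p = 0.0287, 2e-07 and 3.9e-07). Among all genes tested, 0.652%, 2.96% and 5.24% were called in these comparisons in either direction. The Abx_4D call was lost in 5 of 8 leave-one-out fits (adjusted p over all alternatives 1.2e-05 to 0.149).

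Ceacam10 was also lower in cecal Abx_14D than in Abx_4D, with a log2 difference of -3.38 ± 0.47 (edgeR adjusted p = 0.00103), where 0.0932% of genes were called. GF minus Abx_14D was 0.15 and did not pass the test (0.339% called). Colon crypt cells had 24.2 to 40.9 CPM of Ceacam10 in Abx_14D and 17.8 to 26.1 in GF, a log2 difference of -0.52 that did not pass the test (1.07% called). Against the cecum, Ceacam10 was higher in the colon by 5.14 ± 0.37 in Abx_14D (edgeR adjusted p = 1.5e-09) and by 4.47 ± 0.39 in GF (adjusted p = 2.9e-08). In these comparisons 36.1% and 17.2% of all genes were called, so a call there is common. The sizes of the Ceacam10 and Cd177 differences are given side by side and share samples.

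**Figure D4:**
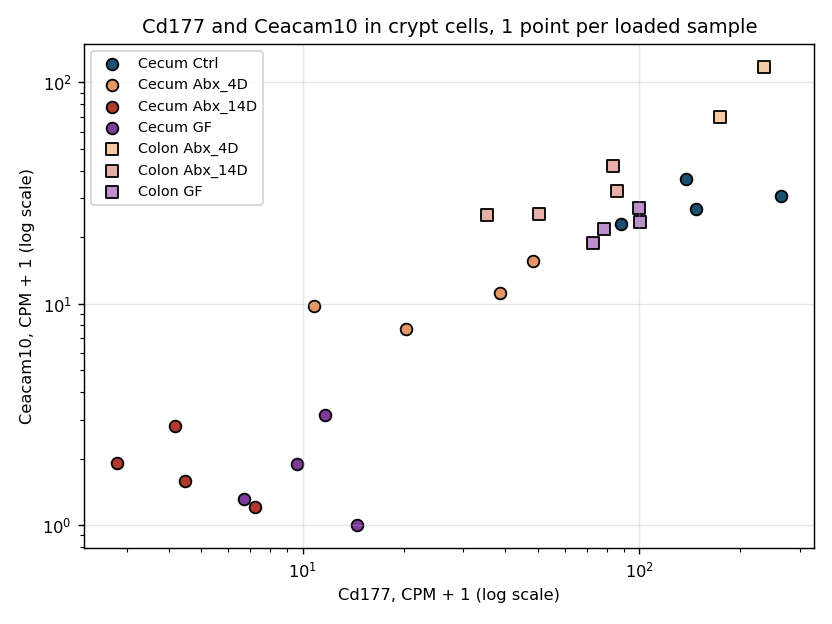
Cd177 against Ceacam10 in crypt cells, both as CPM + 1 on log axes, 1 point per loaded sample with at least 20 crypt cells; circles are cecum and squares colon. Cecal Abx_14D and GF samples lie at the lower left, and cecal Ctrl and all colon samples at the upper right, where Ceacam10 is above 17 CPM.

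In goblet cells, cecal Ceacam10 was 23.8 ± 16.9 CPM for Ctrl (n = 2), 10.1 ± 3.82 for Abx_4D (n = 2), 1.60 ± 1.31 for Abx_14D and 0.855 ± 1.06 for GF. It fell in GF, at a log2 difference of -4.49 ± 0.75 against Ctrl (edgeR adjusted p = 0.00773, with 1.03% of genes called), a call that was lost without Ctrl sample 2 (adjusted p over all alternatives 3.2e-08 to 0.233). In Abx_4D and Abx_14D the log2 differences of -1.22 and -3.81 did not pass the test, where 0% and 0.213% of genes were called. No gene was called in goblet Abx_4D against Ctrl by edgeR, with 619 at an unadjusted p under 0.05, while DESeq2 called 2 higher and 3 lower. The colon goblet level was higher than the cecal one by 4.72 ± 0.49 in Abx_14D (adjusted p = 3.4e-06, 12.3% called) and by 4.70 ± 0.49 in GF (adjusted p = 2.2e-06, 13.9% called).

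Detection of Ceacam10 was compared between cells with and without Cd177, pooled by group and given as shares. In cecal Ctrl crypt cells thinned to 5000 transcripts, Ceacam10 was detected in 21.7% of 244 Cd177-positive cells and 7% of the other cells. In the colon the shares were 22.0% and 11.5% in Abx_14D and 12.9% and 6.98% in GF. They were 5.97% of 67 positive cells and 4.78% of the others in cecal Abx_4D, and 27.2% and 20.2% in colon Abx_4D. In cecal Abx_14D and GF, none of 11 and 20 positive cells had Ceacam10, against 0.494% and 0.489% of the others. Between Cd177-positive and negative colon crypt cells of the same samples, Ceacam10 was 50.03 and 23.6 CPM, a log2 difference of 1.06 ± 0.14 (edgeR adjusted p = 2.1e-07, higher in 9 of 9 samples). In the cecum Ceacam10 did not pass the low-count filter of this test.

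Across sums by class and sample, the genes most like Cd177 were ranked by Pearson's r of log2(CPM + 5), as a description. In the cecum, 74 sums from 5 classes and 16 samples were used, and the highest r was that of Clic6, a chloride channel family gene, at 0.78. Rph3al (0.75), a regulator of exocytosis, the tyrosine kinase Lyn (0.75), the hydrogen peroxide-producing oxidase Duox2 (0.74), the cadherin Celsr1 (0.74), Ssh1 (0.73), Hdac7 (0.73), Mvb12b (0.71), Dnajb1 (0.71) and Tnf (0.71) followed. In the colon, over 49 sums from 6 classes and 10 samples, Ceacam10 had the highest r at 0.91. It was followed by the noncoding RNA Airn (0.90), the integrin activator Fermt1 (0.90), the endodermal transcription factor Foxa2 (0.90), Fam13a (0.89), Arhgap24 (0.88), Chd7 (0.88), Snhg18 (0.88), Lpcat2 (0.87) and Duox2 (0.87). Duox2 was in both lists. Ceacam10 was not ranked in the cecum, where it had no class mean of at least 20 CPM. With ranks in place of levels (Spearman's r), 6 of the top 10 genes stayed among the top 10 in each tissue. The sums share samples and depths, so the points are not independent.

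Which genes go with Cd177 inside the crypt was asked by splitting the crypt cells of each sample, thinned to 5000 transcripts, into those with and without a Cd177 transcript. Many negative cells will have missed a transcript at this depth. In the cecum 9 samples (Ctrl 1 to 4, Abx_4D 1 to 4 and GF 3) gave 331 positive and 1156 negative cells. A sample needed at least 10 cells of each kind, which depends on the random thinning draw. In the separate draw used for the shares above, Abx_4D sample 4 had 8 positive cells and GF sample 3 had 7. Other draws at this depth were not run for this test. In the colon 9 samples (Abx_14D and GF 1 to 4, and Abx_4D 1) gave 1374 and 3682. edgeR with the sample as a block called 48 genes higher and 53 lower of 5566 in the cecum, 1.81% in all (0.862% higher, 0.952% lower). In the colon it called 421 higher and 243 lower of 9418, 7.05% in all (4.47% higher, 2.58% lower). Of 5555 genes tested in both tissues, 20 were called higher in both, 25 lower in both and 4 in opposite directions.

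Cd177-positive cecal crypt cells held more stem cell transcripts and fewer of dividing cells. Of 8 stem markers tested, 5 rose and none fell, and the median log2 difference of the list was 0.38 against 0.02 over all genes tested. Lgr5, the receptor that marks crypt-base stem cells, had 775 CPM in positive and 475 in negative cells, a log2 difference of 0.68 ± 0.10 (adjusted p = 6.7e-06, higher in 9 of 9 samples). Smoc2, a matrix protein of the stem cell zone, rose by 0.81 ± 0.12. Within the S phase gate alone, Lgr5 and Smoc2 were at -0.26 and -0.072 and passed no test. Slc12a2, Lrig1 and Rnf43 were the others that rose. Among markers of G2/M, 3 of 4 tested fell (Top2a, Cenpf and Mki67), and of S phase, 1 of 8 (Hells). The stem, G2/M and S phase markers also set the gates joined in the crypt class. These counts therefore cannot tell a different mix of gates from a difference within a gate. The absorptive marker Car1, a carbonic anhydrase, had 74.2 CPM in positive and 281 in negative cells, and fell by 1.69 ± 0.16 in 9 of 9 samples. The cecal calls depended on the settings: 13 of the 24 genes named by size of change kept their call in every leave-one-out fit, 16 of 24 with DESeq2, 6 of 24 at 10000 transcripts per cell, 1 of 16 tested at 2500 and 3 of 10 tested within the stem gate.

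Among called genes with a mean of at least 20 CPM that went the same way in at least 80% of samples, the 12 largest increases in the cecum were led by Adh1, an alcohol dehydrogenase, with 133 CPM in positive and 55.3 in negative cells (1.27 ± 0.19). Prkacb, Zfp711, Smoc2, Rdh9 (a retinol dehydrogenase), Crot, Kif26b, Phldb2, Junos, Klhl24, Fmnl2 and Lgr5 followed, at 0.84 to 0.68. The 12 largest decreases were Slc37a2 (-1.75 ± 0.21), Car1, Kif4, Cenpa, Cdca2, Cyp4f40, Rad18, Cenpp, Coro2a, Prc1, Hk1 and Clspn (-0.98). Kif4, Cenpa, Cdca2, Cenpp and Prc1 encode proteins of mitotic chromosomes and the spindle, and Clspn acts at replication forks. Within the stem gate alone, Adh1 (1.05), Smoc2 (0.71) and Car1 (-1.22) kept their calls, whereas Lgr5 (0.45) did not. In all, 4 genes were called there.

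**Figure D5:**
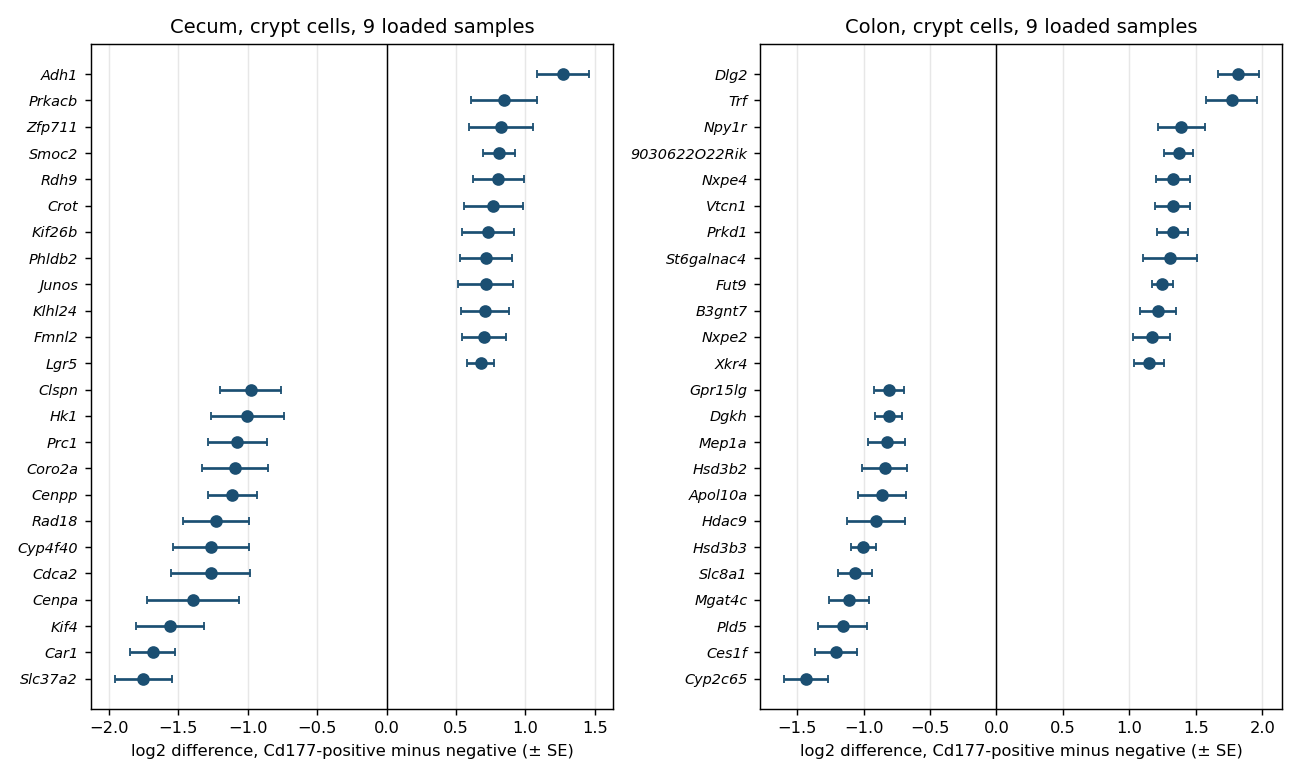
Log2 difference between Cd177-positive and Cd177-negative crypt cells of the same samples, after thinning, with SE, for the 12 largest increases and 12 largest decreases among called genes with a mean of at least 20 CPM and the same direction in at least 80% of samples; cecum left, colon right. Cecal values run from 1.27 for Adh1 to -1.75 for Slc37a2, and colon values from 1.82 for Dlg2 to -1.43 for Cyp2c65.

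In colon crypt cells, some goblet and stem markers were higher in Cd177-positive cells. Of 3 goblet markers tested, 2 rose: Agr2, a protein disulfide isomerase needed for mucin folding, with 119.7 CPM in positive and 59.8 in negative cells (0.98 ± 0.09, 9 of 9 samples), and Fcgbp (0.56 ± 0.17). The mucin Muc2 had 70.5 CPM in positive and 75.6 in negative cells and did not pass the test. Kit, a receptor found on deep crypt secretory cells, rose by 0.82 ± 0.13, while Reg4, a second such marker, had 14.7 and 12.5 CPM and did not pass. Of 9 stem markers, 4 rose (Smoc2, Lrig1, Rgmb and Lgr5) and none fell. Lgr5 differed by only 0.18 ± 0.06 (adjusted p = 0.0494, higher in 6 of 9 samples). Of 10 G2/M markers 2 fell (Mki67 and Birc5), of 9 S phase markers 1 (Mcm3), and of 6 absorptive markers 2 (Car1 and Mep1a). As in the cecum, the stem, G2/M and S phase markers also set the gates joined in the crypt class.

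By the same rule, the largest colon increase was that of Dlg2, a scaffold protein, with 99.4 CPM in positive and 30.7 in negative cells (1.82 ± 0.15, edgeR adjusted p = 1.2e-11). Trf, the iron carrier transferrin, rose by 1.77 ± 0.19 and Npy1r, a receptor for neuropeptide Y, by 1.39 ± 0.18. Fut9, a fucosyltransferase, was the most abundant of the 12, at 589.9 CPM in positive and 241 in negative cells (1.25 ± 0.08, 9 of 9 samples). The glycosyltransferases St6galnac4 (1.31) and B3gnt7 (1.21) were also among the 12, with 9030622O22Rik, Nxpe4, Vtcn1, Prkd1, Nxpe2 and Xkr4 at 1.37 to 1.15. The 12 largest decreases were Cyp2c65 (-1.43 ± 0.17), Ces1f, Pld5, Mgat4c, Slc8a1, Hsd3b3, Hdac9, Apol10a, Hsd3b2, Mep1a, Dgkh and Gpr15lg (-0.81). Cyp2c65, Ces1f, Hsd3b3 and Hsd3b2 encode enzymes of lipid, drug and steroid metabolism. Within the stem gate, 292 genes were called higher and 172 lower, Dlg2 differed by 1.84 and Fut9 by 1.21.

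The Ly6/uPAR family of Cd177 was mostly silent in these cells. Of 48 other members in the table, 11 were at 0 in all crypt and goblet samples and 5 reached a group mean of 20 CPM. In cecal crypt cells 7 members could be tested. None rose against Ctrl, and 2 fell in Abx_4D, 2 in Abx_14D and 3 in GF. Over all genes, 0.542%, 2.04% and 3.23% were called lower there. Over the alternatives run, 0 to 3, 1 to 6 and 3 to 4 members were called. The members' median log2 differences were -0.56, -0.89 and -1.66. Members passed the low-count filter partly through the group in which they were high, so these counts describe the tested members only.

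Ly6a, a surface antigen induced by interferon, had 14.1 ± 6.57 CPM in cecal Ctrl crypt cells and fell to 2.05 ± 1.503 in Abx_4D, to 2.15 ± 0.609 in Abx_14D and to 0.810 ± 0.707 in GF (edgeR adjusted p = 0.012, 0.00136 and 5e-05). The Abx_4D call was lost without Abx_4D sample 3 (adjusted p over all alternatives 4e-07 to 0.0832). Lypd8l fell in all 3 groups, from 9.14 ± 3.24 CPM to 3.14 ± 1.39, 3.49 ± 1.11 and 1.88 ± 0.6252. Its calls in Abx_4D and Abx_14D were lost in 6 and 5 of 8 leave-one-out fits (adjusted p over all alternatives 0.00752 to 0.193 and 0.00837 to 0.113). Ly6e was 68.4 ± 14.95 CPM in Ctrl and fell to 20.1 ± 6.78 in GF (log2 difference -1.79 ± 0.29, edgeR adjusted p = 0.00051). None of the 7 was called in Abx_14D against Abx_4D (0.0932% of all genes lower) or in GF against Abx_14D (0.195% lower). Lypd8, which binds flagellated bacteria, was the most abundant member, at 197 ± 50.4 CPM in Ctrl and 148 ± 17.4 in GF, and passed no cecal crypt test. Plaur, the urokinase receptor, had 32.6 ± 19.3 and 9.15 ± 5.46 CPM and did not pass either.

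In colon crypt cells, Ly6a, Ly6e and Lypd8 were lower in GF than in Abx_14D, 3 of 9 tested members, with 0.946% of all genes called lower. Ly6a was 5.72 ± 1.39 CPM in Abx_14D and 1.06 ± 0.468 in GF, and Ly6e 74.8 ± 17.8 and 31.5 ± 2.76, where Cd177 itself was 62.8 and 87.0. The Lypd8 call was lost without Abx_14D sample 2 and without GF sample 3 (adjusted p over all alternatives 1.3e-05 to 0.0514). Against the cecum, 3 members rose in the colon in Abx_14D (Ly6a, Ly6e and Lypd8l) and 2 in GF (Ly6e and Lypd8l), and none fell, where 36.1% and 17.2% of all genes were called. The GF call of Ly6e was lost in 4 of 8 leave-one-out fits (adjusted p over all alternatives 0.00271 to 0.0726). The largest of these differences, 2.25 ± 0.32 for Lypd8l in GF, was below that of Cd177.

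In goblet cells 5 members could be tested. In cecal GF, Ly6a fell by 3.53 ± 0.57 against Ctrl and Ly6e fell by 1.42 ± 0.30, with 0.68% of all genes called lower. The Ly6a call was lost without Ctrl sample 2 and the Ly6e call in 4 of 6 leave-one-out fits (adjusted p over all alternatives 0.00014 to 0.151 and 9.3e-05 to 0.213). None passed in cecal Abx_4D or Abx_14D against Ctrl, where 0% and 0.193% of genes were called lower. GF against Abx_14D called Ly6e lower in the cecum, where 0.822% of genes were called (0.386% lower), and in the colon, where 0.517% were (0.46% lower). The cecal call was lost in 5 of 8 leave-one-out fits. Lypd6b was higher in the colon, at 89.8 ± 20.05 CPM in Abx_14D and 112 ± 20.3 in GF against 17.6 ± 1.55 and 37.5 ± 9.98 in the cecum. Ly6e and Lypd8l were also higher in the colon in both groups. In these comparisons 12.3% (Abx_14D) and 13.9% (GF) of all genes were called in either direction. The Lypd8l call was lost in 5 of 8 leave-one-out fits in Abx_14D and in 1 of 8 in GF. It was also lost in 1 of 6 other settings in each group, as was the Ly6e call in Abx_14D in 1 of 6. In Cd177-positive against negative crypt cells, none of the 2 members tested in the cecum and 4 in the colon passed.

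Of the genes that build and attach the GPI anchor, 30 were in the table and 29 were tested in crypt cells. None was called in any of the 5 cecal comparisons, where 0.0932% to 5.24% of all genes were, nor in colon GF against Abx_14D (1.07%), so these counts are near the share over all genes. In crypt cells of colon against cecum, 8 were lower in Abx_14D (Gpaa1, Pgap4, Pigq, Pgap3, Pigw, Piga, Pigt and Pigm, at log2 differences of -0.74 to -0.41), with 21.2% of all genes lower, at a median of -0.24 against -0.07 over all genes. In GF, Gpaa1, Piga, Pgap3 and Pgap4 were lower and Pigf was higher, with 8.32% of all genes lower. In goblet cells of colon against cecum, Pgap4 and Pgap1 were lower in GF (7.59% of genes lower) and none in Abx_14D (6.88% lower). With TMM scaling, the split of goblet calls in Abx_14D went from 553 higher and 708 lower to 711 and 518. None of 8 members tested in the cecum and 24 in the colon passed in Cd177-positive cells, where 1.81% and 7.05% of all genes did.

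A list of 5 genes taken as partners of CD177 held Prtn3, Itgam, Itgb2, Pecam1 and F11r. Of these, only F11r, a tight junction protein, was at 20 CPM or more. Whether F11r binds CD177 was not tested. F11r had 276 ± 61.1 CPM in cecal Ctrl crypt cells, 208 ± 51.3 in Abx_14D and 186 ± 36.4 in GF. It passed no test in crypt or goblet cells. Itgam, an integrin chain of myeloid cells, was sparse, with 775 transcripts in all kept cells. It was higher in colon than in cecal crypt cells by 1.25 ± 0.32 in Abx_14D and 1.28 ± 0.32 in GF. In these comparisons 36.1% and 17.2% of all genes were called, so a call there is common. Prtn3, the enzyme that CD177 holds on neutrophils, had 131 transcripts in all kept cells.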

How the data were processed

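Transcript counts per cell and gene were used as deposited by the authors, not normalised. Per the submitters' processing notes, the build was mm39 and Seurat was used, without versions; the aligner, the counter and their versions are not stated there. Barcodes with at least 500 transcripts were kept; no doublet caller was run. Marker cut-offs were set on the marker sums. Counts were summed per loaded sample and class (at least 20 cells) and fitted across all genes with edgeR 4.0.16 (quasi-likelihood, library-size scaling, default filter, Benjamini-Hochberg, threshold 0.05; R 4.3.3). The 4 cecal groups shared 1 fit, as did the colon groups, and colon and cecum of Abx_14D and GF. DESeq2 1.42.0 was an alternative. Tests on simulated data (11723 genes, cecal crypt GF against Ctrl) recovered 26.8% of log2 changes of 1 and 98.0% of 2, with 6.11% false among calls. For positive against negative colon cells (9418 genes) they recovered 95% and 100%, with 8.02% false. Likeness used log2(CPM + 5) over genes with a class mean of at least 20 CPM. Named genes were Cd177, its neighbours, called or abundant (20 CPM) family members, the 10 most alike per tissue, and the 12 largest changes each way among genes at 20 CPM and the same way in 80% of samples. GPI members that were only abundant are given as counts. The gene and all lists were chosen with earlier results of these data known. Intervals and floors (3 counts) cover counting error only.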

Additional observations from a re-analysis of the deposited data

Results flagged for a closer look

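Among 48 groups of 4 samples of Cd177 or Ceacam10, 4 held a sample far from the others. Chance alone does so in about 1 of 20 groups, a rate that need not hold for groups with few transcripts. Cd177 stood at 290.3 CPM in 1 S phase sample of cecal Ctrl and at 5.86 CPM in 1 G2/M sample of cecal Abx_14D. In absorptive cells of the colon, where the other samples had no Ceacam10 transcript, 1 Abx_14D sample had 1.14 CPM and 1 GF sample 1.07 CPM, from 1 transcript each.

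Some Cd177 signal lay outside the comparisons. In pooled colon enteroendocrine cells it was 276 CPM in Abx_14D and 241 CPM in GF; the Abx_14D value was 111.1 CPM without sample 1, which held 91 of 107 transcripts, and 1 cell held 43. Also in pooled colon Abx_4D crypt cells Cd177 was 174 CPM, with no usable colon control.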

How the results depend on the processing

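Of 16 Cd177 group differences, 1 changed direction under an alternative run (other scalings and filters, cell minimums, gates, and samples or sublibraries left out): goblet GF against Abx_14D, at 0.32 with at least 40 cells per sample. That minimum left only sample 3 of cecal Abx_14D and samples 2 and 3 of cecal GF. Colon goblet GF against Abx_14D was -0.78 without sublibrary 2, and the per-cell mean of colon GF goblet cells was 84.0 CPM. The cause was not tested.

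Leaving out 1 sample moved the crypt log2 differences from Ctrl between -2.88 and -2.23 (Abx_4D), -5.75 and -5.01 (Abx_14D) and -4.28 and -3.71 (GF). Abx_14D against Abx_4D lay between -3.15 and -2.50, GF against Abx_14D between 1.12 and 1.67, colon GF against Abx_14D between 0.24 and 0.61, and colon against cecum between 3.89 and 4.44 (Abx_14D) and 3.05 and 3.36 (GF). In goblet cells the same ranges were -2.90 to -0.98, -4.80 to -3.98, -5.40 to -4.60, -3.46 to -1.53, -0.97 to -0.24, -0.69 to -0.56, 4.02 to 4.71 and 3.99 to 4.65. Where this left 1 sample in a group, that sample was assumed to vary like the other groups.

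Calls in Cd177-positive against negative crypt cells depended on depth. In the cecum 101 genes fell to 58 with DESeq2, 5 at 2500 and 26 at 10000 transcripts per cell, 4 within the stem gate and 0 within the S phase gate (3 samples, 142 genes at an unadjusted p under 0.05). Without a sample they ran from 53 (without Ctrl 4) to 112. In the colon 664 became 161 at 2500, 1075 at 10000, 16 within S phase and 42 within G2/M, and 540 to 654 without a sample. In the cecum 13 of 24 named genes kept their call in every leave-one-out fit, 6 of 24 at 10000 transcripts, 1 of 16 at 2500 and 3 of 10 within the stem gate. In the colon these were 23 of 24, 24 of 24, 14 of 21 and 22 of 24. Hk1 turned to 0.15 and 0.011 at 2500 and 10000 transcripts; within the S phase gate Smoc2 was -0.072 and Lgr5 -0.26 in the cecum, and Slc8a1 0.045 in the colon. The cecal G2/M gate could not be fitted.

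With TMM scaling, goblet colon against cecum in Abx_14D had 711 genes higher and 518 lower, against 553 and 708, and the median of all genes moved from -0.12 to 0.00. Loaded numbers were not taken as pairs, since no label ties them and correlations of same-numbered cecal crypt samples ran from -0.35 to 0.48. However, 11 of 16 samples correlated best with their own number, a hint of a shared number effect from the data and not the design. With the replicate block, Cd177 differed from Ctrl by -2.56, -5.39 and -3.99 in crypt cells, and goblet GF against Ctrl had 248 genes higher and 276 lower, against 34 and 67 without it.

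Leaving out each sample from pooled colon enteroendocrine cells was chosen after seeing the data. The number of genes called over the whole table also moved. In crypt cells against Ctrl, Abx_4D had 13 higher and 64 lower with edgeR, 45 and 181 with DESeq2, 71 and 266 without the low-count filter and 22 and 111 with the replicate block. Abx_14D had 108 and 241, then 162 and 407 with DESeq2 and 241 and 542 without the filter, and GF 237 and 381, then 367 and 724 without the filter. In goblet cells, GF against Ctrl had 34 and 67, then 146 and 139 with DESeq2, 345 and 413 without the filter and 121 and 146 at 10 cells per sample. GF against Abx_14D had 43 and 38, then 142 and 90 with DESeq2 and 1 and 12 at 10 cells.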
